A study of Mus musculus with 4 samples.

Results

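The 10 genes described here encode interferon-induced antiviral proteins that act at membranes, in the cytoplasm or in the nucleus: Bst2, Ifitm3, Samd9l, Xaf1, Ifi27, Ifi35, Ifi44, Sp100, Trim30a and Rtp4. They were taken by gene symbol, and all 10 were found among the 4295 genes that the deposited tables list, 1780 higher and 2515 lower with riluzole. The cells were CT26, a wild-type mouse colon carcinoma line of BALB/c origin grown in culture. The 2 riluzole libraries came from cells given 25 µM riluzole, a glutamate-dampening drug used in amyotrophic lateral sclerosis, and the 2 control libraries from cells given the solvent DMSO, both for 24 h. The title of the study places the comparison in cGAS-STING signalling and PD-1 blockade. The tables hold only genes with a deposited p-value under 0.05, of the 12601 genes that the relation between p-value and adjusted p implies were tested, so a gene that is not listed was not shown to be unchanged. The listed genes held 10393602 and 9191717 counts in riluzole replicates 1 and 2, and 9898486 and 12989475 counts in control replicates 1 and 2. Whether the replicates were grown as separate cultures is not stated in the labels, and the p-values given here therefore reflect variation among these libraries, which may be technical.

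Of 9 epithelial marker genes, Krt18, Krt20 and Krt8 were listed, all higher with riluzole, and Krt8 had no more than 17.7 normalised counts in any library. Of 7 fibroblast and endothelial markers 4 were listed, with Col1a1, Col1a2 and Pdgfrb lower with riluzole, by log2 fold changes of -0.34, -0.16 and -0.36, and Vim higher. Vim, a mesenchymal intermediate filament gene, had 51912 and 53272 normalised counts in the riluzole libraries and 33588 and 31645 in the control libraries. Of 8 leukocyte markers only Cd68 was listed, at 327 and 325 normalised counts with riluzole and 183 and 216 in control. The levels of the other 7, Ptprc among them, were not analysed here, and the part of Cd68-expressing cells in any result was not tested. In bulk RNA, a change in the number of cells making a transcript and a change in the transcript per cell cannot be told apart.

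Type I interferon binds a receptor whose kinases activate the transcription factor complex ISGF3. STAT2 and IRF9 are subunits of this complex, which binds the interferon-stimulated response element in the promoters of its target genes. The products of those targets block viruses at successive steps: entry, replication, gene expression in the nucleus, and release at the cell surface.

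Promoter sequences are shown because the 10 genes moved together and the element that ISGF3 binds is a short repeat that can be read directly. Windows from 250 bases before to 50 bases after a transcript start (RefSeq, GRCm38.p6) were found for 8 of the 10 genes, 10 windows in all, since Sp100 and Trim30a have 2 each; Ifi27 and Rtp4 had none in the table used. The core letters GAAANNGAA, searched on both strands, were present in 5 of the 8 genes, which was 62.5%, against 9.76% of 27025 mouse genes with such windows. The share was 12.3% of the genes listed higher and 8.37% of those listed lower. The 10 genes were chosen as interferon-induced genes, with earlier results of these data known. Their share is therefore not independent of that choice. The matches lay in Bst2, Ifitm3, Ifi44, Samd9l and Trim30a, printed here on the gene's strand with the matched core in capitals.
Bst2, chr8:71537558-71537632, minus strand: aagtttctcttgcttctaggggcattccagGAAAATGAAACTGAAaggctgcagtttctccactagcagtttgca
Ifitm3, chr7:141010715-141010772, minus strand: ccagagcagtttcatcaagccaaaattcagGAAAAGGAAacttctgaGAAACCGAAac
Ifi44, chr3:151749881-151749943, minus strand: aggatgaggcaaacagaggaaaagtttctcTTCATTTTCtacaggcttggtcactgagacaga
Trim30a, chr7:104465190-104465258, minus strand: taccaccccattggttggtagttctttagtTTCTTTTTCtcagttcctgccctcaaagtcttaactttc
Samd9l, chr6:3399522-3399551, minus strand: gtatcagaatcgaaactgGAAACTGAAgca

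Bst2 held 2 overlapping cores, starting at positions -130 and -124 from the transcript start, so that the repeat ran on. Ifitm3 also held 2, both just inside the transcript at positions 3 and 20. Those of Ifi44 and Trim30a were on the opposite strand at -3 and -35, and the other Trim30a window held the same letters at position 4. For Bst2 and for that other Trim30a window, the bases just past the start were not found in the gene's GENCODE M21 transcripts. Positions in these windows therefore rest on the RefSeq start alone. The single core of Samd9l began at position 39, within the first exon. The letters TTCNNNGAA, the gamma-activated site of interferon gamma target genes, occurred in 3 of the 8 genes, Bst2, Ifitm3 and Ifi35, against 9.55% of all genes; the site in Bst2 overlapped its first core and that in Ifitm3, at position 14, overlapped its second. Sp100 and Xaf1 held neither string in these windows, which says only that these letters are not there. A match of this length is a description of the sequence and not evidence of binding.

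All 10 genes were higher with riluzole. In edgeR's quasi-likelihood test, adjusted over 12601 genes by Benjamini-Hochberg, 10 of 10 were called higher at an adjusted p under 0.05 and 0 lower. Calls in the whole comparison came to 14.1% of the 12601 genes higher and 19.8% lower. Only the 4295 listed genes entered this fit, and unlisted genes are counted there as not called. The lists hold genes already selected for a low p-value, and the same call was made for 1772 listed genes (41.3%), beside 1780 listed as higher. Once all 10 are listed as higher, the count therefore follows almost wholly from the selection. The authors' deposited table also gives all 10 an adjusted p under 0.05, a call that 9.63% of tested genes received as higher. Both riluzole libraries lay above both control libraries for all 10, as they did for 1777 listed genes (41.4%), again nearly all of those listed as higher. The rise reached 2-fold for 8 of the 10. It did so for 288 listed genes (6.71%), beside 1780 listed as higher. That share is taken over all listed genes, and the 2515 listed as lower could not reach it. The median log2 fold change of the 10 was 1.28, which is 2.42-fold, with a range of 0.24 for Ifi27 to 1.82 for Xaf1. The median was -0.19 over all listed genes and 0.45 over those listed higher.

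**Figure D1:**
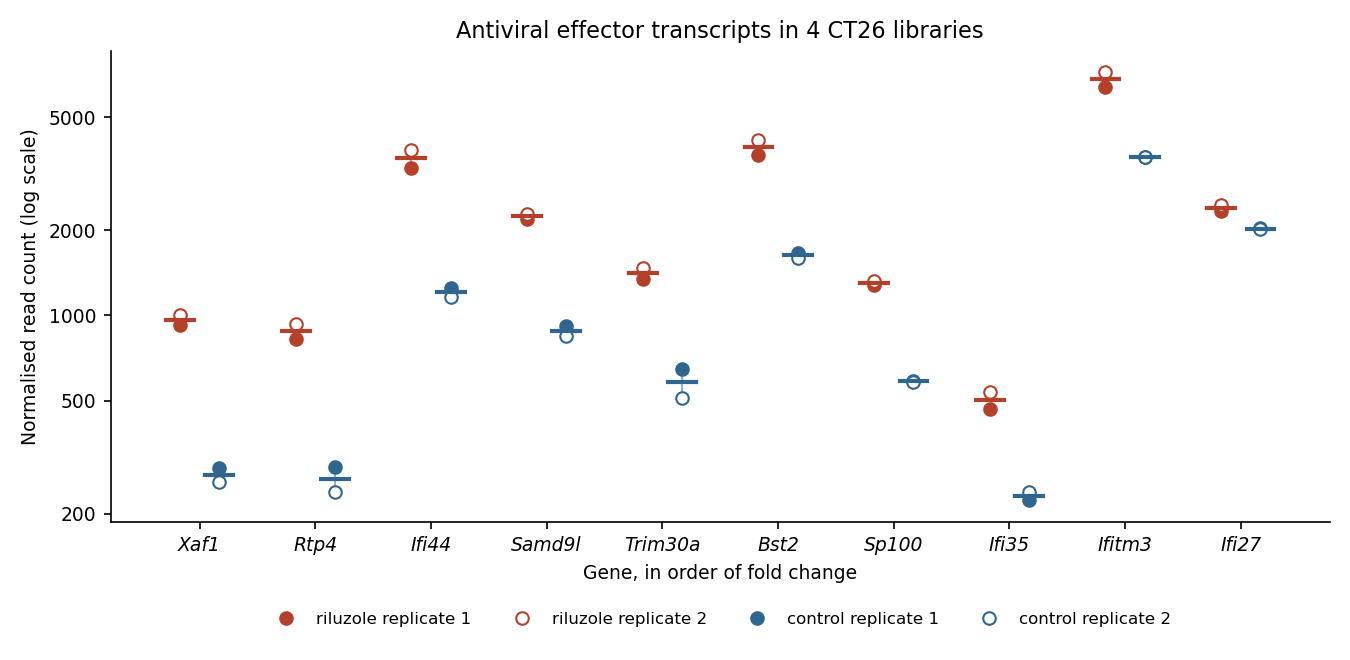
Normalised read count of each gene in the 4 libraries, on a log axis, with riluzole left of control. Filled circles are replicate 1, open circles replicate 2 and bars the mean of 2 libraries; the riluzole circles lie above the control circles for all 10 genes, with the narrowest gap for Ifi27.

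At the membranes, the tetherin gene Bst2 and the fusion inhibitor gene Ifitm3 combined high levels with clear rises. Bst2 (chromosome 8, 71986899 to 71990100, mm39), whose product holds budding enveloped virions on the cell surface, had 3694 and 4143 normalised counts with riluzole and 1660 and 1599 in control. Its groups stood apart, with a 2.40-fold rise that was at least 2.23-fold for every pairing of a riluzole with a control library (log2 fold change 1.27 ± 0.05, SE; adjusted p = 1.10e-17 in edgeR, Benjamini-Hochberg). Ifitm3 (chromosome 7, 140589499 to 140590683), which stops viral membranes from fusing with endosomes, had 6420 and 7213 normalised counts with riluzole and 3624 and 3607 in control. The control pair was almost identical, and the rise was 1.89-fold (log2 fold change 0.91 ± 0.05, SE).

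Rtp4 (chromosome 16, 23339041 to 23432972), a Golgi chaperone for G protein-coupled receptors, rose more steeply from a lower base. It had 828 and 930 normalised counts with riluzole and 293 and 238 in control, a 3.31-fold rise (log2 fold change 1.74 ± 0.10, SE; adjusted p = 8.43e-15 in edgeR, Benjamini-Hochberg). Pairings of a riluzole with a control library gave 2.83-fold to 3.91-fold. Its exons overlap those of the long non-coding RNA gene Gm45338 on the same strand by 296 bases, so the 2 genes may share reads. Gm45338 had 33.9 and 32.1 normalised counts with riluzole and 13.2 and 13.5 in control, far fewer than Rtp4 in every library.

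Ifi27 (chromosome 12, 103400470 to 103406498), which encodes a small hydrophobic protein of mitochondria and the nuclear envelope, was the member that changed least. It had 2336 and 2449 normalised counts with riluzole and 2028 and 2012 in control. The groups did not overlap, yet the rise was 1.18-fold (log2 fold change 0.24 ± 0.05, SE). The edgeR test gave it a Benjamini-Hochberg adjusted p of 0.000126, and the authors' deposited table one of 0.00397. Its 95% interval, 0.15 to 0.34, lay below that of each of the other 9 genes, the nearest being Ifitm3 at 0.82 to 1.01. Among the 1534 genes listed higher that averaged 100 normalised counts or more, Ifi27 ranked 1247 by fold change, whereas the other 9 ranked between 18 and 120.

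The cytoplasmic effectors Samd9l, Trim30a and Ifi44 rose by 2.42-fold to 2.97-fold. Ifi44 (chromosome 3, 151436559 to 151455597), an interferon-induced protein with antiviral activity reported in human cells, had 3324 and 3842 normalised counts with riluzole and 1252 and 1161 in control. Its 2.97-fold rise (log2 fold change 1.57 ± 0.06, SE) had the smallest edgeR adjusted p of the 10 genes, 1.25e-18 by Benjamini-Hochberg. Samd9l (chromosome 6, 3372257 to 3399572), which restricts poxviruses by shutting down protein synthesis, had 2186 and 2288 normalised counts with riluzole and 920 and 845 in control, a 2.54-fold rise (log2 fold change 1.35 ± 0.05, SE). A stretch of 246 bases is 95.1% identical between Samd9l and the neighbouring Gm20559.

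Trim30a (chromosome 7, 104058232 to 104114400) encodes a mouse tripartite motif ubiquitin ligase known to promote degradation of the signalling adaptors TAB2 and TAB3. It had 1343 and 1472 normalised counts with riluzole and 650 and 511 in control, a 2.42-fold rise (log2 fold change 1.29 ± 0.08, SE). The control libraries differed more for Trim30a than for any other member, and pairings ran from 2.07-fold to 2.88-fold. It shares 301 bases at 97.7% identity with Trim30d.

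In the nucleus, Sp100 (chromosome 1, 85577709 to 85637719), a resident of PML nuclear bodies that silences incoming viral DNA in human cells, had 1278 and 1322 normalised counts with riluzole and 589 and 584 in control. Replicates agreed closely in both groups and the rise was 2.22-fold (log2 fold change 1.15 ± 0.07, SE; adjusted p = 2.07e-14 in edgeR, Benjamini-Hochberg). Stretches of 332 to 399 bases of Sp100 are over 98% identical to Gm7582, Gm7609, Gm7592 and Gm2619, so reads may be divided among them and its level is less certain.

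Of the pair whose products act by binding other proteins, Xaf1 rose most of the set in fold and Ifi35 had the fewest reads. Xaf1 (chromosome 11, 72192455 to 72204559), whose human product binds XIAP and relieves its block on caspases, had 924 and 1002 normalised counts with riluzole and 290 and 259 in control. Its 3.51-fold rise was the largest of the 10 (log2 fold change 1.82 ± 0.09, SE; adjusted p = 3.28e-16 in edgeR, Benjamini-Hochberg). Ifi35 (chromosome 11, 101339233 to 101349524), a leucine zipper protein that binds NMI, had 469 and 536 normalised counts with riluzole and 223 and 238 in control. It rose 2.18-fold (log2 fold change 1.12 ± 0.10, SE), and pairings of libraries ran from 1.97-fold to 2.40-fold. Ifi35 shares 290 exon bases with Gm11626 on the opposite strand, and whether the libraries kept strand is not stated in the labels. In the order of fold change, the 95% intervals of neighbours overlapped from Xaf1 down to Ifitm3, although those of Ifi44, 1.45 to 1.69, and Samd9l, 1.23 to 1.46, only just met. Ifitm3 and Ifi27 were the one pair of neighbours whose intervals stood apart.

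**Figure D2:**
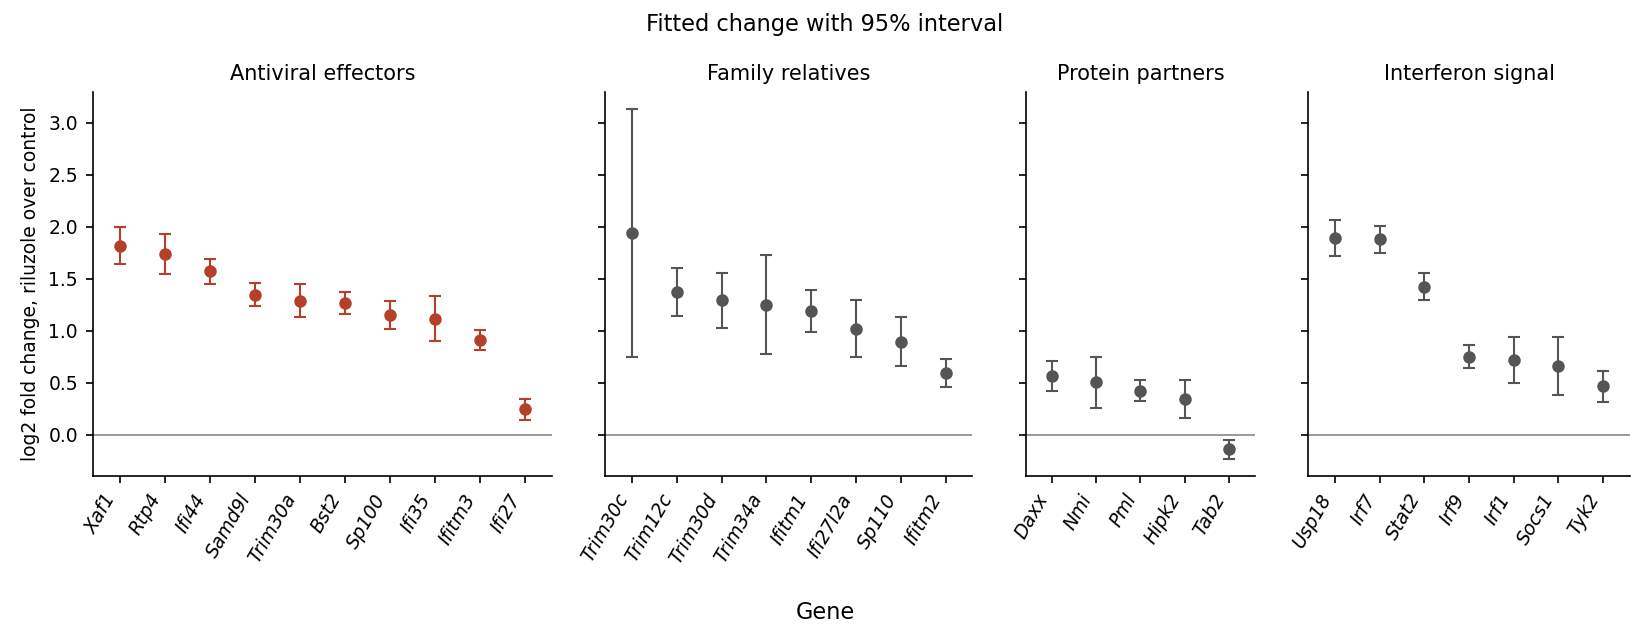
Fitted log2 fold change of riluzole over control with its 95% interval (edgeR) for the 10 antiviral effector genes and for listed genes of 3 related lists. Of the 10 effectors all intervals lie above 0, and that of Ifi27 (0.15 to 0.34) lies below the other 9; among protein partners Tab2 lies just below 0.

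Compared per gene length, the 10 genes spanned a wide range of levels. With riluzole, mean FPKM (fragments scaled by gene length and library total) was 571 ± 46.3 for Ifitm3, 246 ± 19.7 for Bst2 and 92.6 ± 2.98 for Ifi27 (SD, n = 2). In control the same 3 genes led, with 308 ± 0.39 for Ifitm3, 104 ± 2.54 for Bst2 and 79.5 ± 0.27 for Ifi27. The other 7 lay between 9.77 FPKM for Sp100 and 33.2 FPKM for Ifi44 with riluzole, and between 3.38 for Xaf1 and 11.4 for Ifi44 in control.

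The order below the leading genes was partly rearranged. With riluzole it ran Ifi44, Rtp4, Samd9l, Trim30a, Ifi35, Xaf1 and Sp100, and among these neighbours only Rtp4 (23.4 ± 1.88 FPKM) and Samd9l (23.4 ± 0.72) had overlapping libraries. In control it ran Ifi44, Samd9l, Trim30a, Ifi35, Rtp4, Sp100 and Xaf1, and the libraries overlapped between neighbours from Samd9l (9.39 ± 0.54) through Trim30a (8.15 ± 1.36) and Ifi35 (7.70 ± 0.38) to Rtp4 (7.19 ± 1.04). Xaf1 stood above Sp100 with riluzole, 11.7 ± 0.65 against 9.77 ± 0.23 FPKM, and below it in control, 3.38 ± 0.26 against 4.48 ± 0.02 FPKM. The order by fold was not the order by amount. Xaf1 had the largest fold and gained 8.28 FPKM, while Ifitm3 gained 263 and Bst2 142 FPKM. Of the 503 FPKM gained by the 10 genes together, Ifitm3 and Bst2 held 80.4%.

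**Figure D3:**
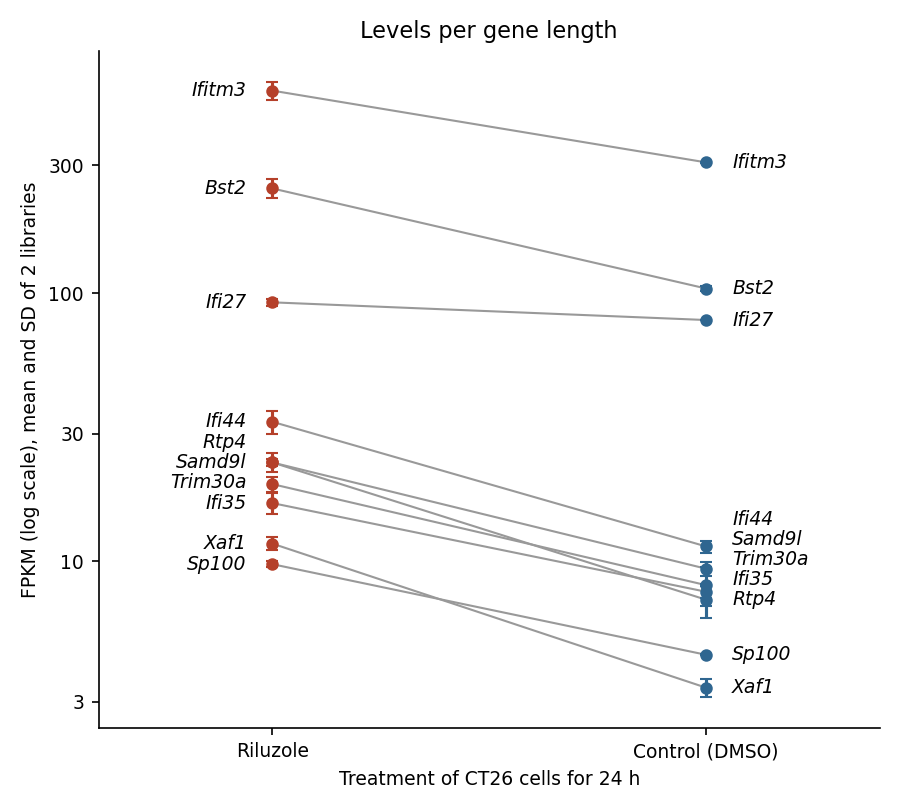
FPKM of the 10 genes on a log axis, riluzole left and control right, as the mean and SD of 2 libraries with a line for each gene. All lines are higher at the riluzole end; the Ifi27 line is nearly level, 92.6 against 79.5 FPKM, and the Xaf1 and Sp100 lines cross.

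Within each group, the replicates differed in the same direction for most or all of the 10 genes. Riluzole replicate 2 was above riluzole replicate 1 for 10 of 10 genes, by a median of 0.15 on the log2 scale (0.05 to 0.21), although only 54.4% of the genes listed higher showed that order. Control replicate 2 was below control replicate 1 for 9 of 10, Ifi35 being the exception, against 51.4% of the genes listed higher. The riluzole order was not particular to this set. It held for 7 of 8 listed relatives, 7 of 8 OAS genes, 6 of 7 IFIT group genes, 5 of 7 interferon signal genes and 3 of 5 partners, all described below. The control order held for 4, 5, 6, 5 and 2 of these. The summed FPKM of the 10 genes was 991 and 1102 in riluzole replicates 1 and 2 and 548 and 539 in control replicates 1 and 2. These gaps were small beside the treatment difference: leaving out each library in turn, the median log2 fold change stayed between 1.20 and 1.35, and 10 of 10 genes were called each time.

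Relatives of the 10 genes that were listed also rose. Of 21 family members, 8 were listed, with a median log2 fold change of 1.22. All 8 were called higher in edgeR, and 7 in the authors' deposited table. Of the 4295 listed genes, edgeR called 1772 higher and 2501 lower, so a call nearly follows from being listed. Trim12c, another tripartite motif gene, had 465 and 445 normalised counts with riluzole and 190 and 164 in control (log2 fold change 1.37 ± 0.11, SE). Trim30d had 304 and 342 with riluzole and 122 and 140 in control (1.29 ± 0.13), so that Trim30a and its near neighbour rose by almost the same factor.

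Within the small families, the named member was not always the one that rose most. Ifitm1 had 619 and 681 normalised counts with riluzole and 255 and 310 in control (log2 fold change 1.19 ± 0.10, SE), and Ifitm2 had 1202 and 1346 with riluzole and 878 and 814 in control (0.59 ± 0.07). The interval of Ifitm3, 0.82 to 1.01, overlapped that of Ifitm1 and lay above that of Ifitm2, which ended at 0.73. Ifi27l2a, next to Ifi27, had 282 and 357 normalised counts with riluzole and 167 and 149 in control, a log2 fold change of 1.02 whose interval, 0.75 to 1.29, lay above that of Ifi27. Sp110, a nuclear body relative of Sp100, had 348 and 382 with riluzole and 205 and 188 in control (log2 fold change 0.90 ± 0.11, SE).

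Trim34a and Trim30c were the weakest measured of these relatives. Trim34a was called in edgeR with a Benjamini-Hochberg adjusted p of 6.77e-05. Trim30c had 17.4 and 19.9 normalised counts with riluzole and 4.39 and 5.05 in control. It passed in edgeR with a Benjamini-Hochberg adjusted p of 0.0077, but its adjusted p was 1 in the authors' deposited table, and the DESeq2 test did not call it either. Only Ifi27l2a and Trim30c were free of near-identical copies and overlapping exons, so reads of the other 6 could be divided with relatives. Ifitm5, Ifitm6, Ifitm7, Ifitm10, Ifi27l1, Ifi27l2b, Ifi44l, Trim30b, Trim12a, Sp140, Rtp1, Rtp2 and Rtp3 were not listed.

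Listed genes for proteins that bind the products of this set had log2 fold changes of -0.14 to 0.56. Of the 12 such partners reported here, from a list shortened after values were known, 5 were listed, 4 called higher and 1 lower. Among all listed genes 41.3% were called higher and nearly all the rest lower. Of the 5, 4 had a larger fold change than the member Ifi27 (0.24), and the difference between partners and members was not tested. Daxx and Pml, which with Sp100 make up PML nuclear bodies, rose: Daxx had 1193 and 1214 normalised counts with riluzole and 743 and 875 in control (log2 fold change 0.56 ± 0.07, SE), and Pml had 1978 and 2079 with riluzole and 1499 and 1520 in control (0.43 ± 0.05). Nmi, the partner of Ifi35, had 270 and 314 normalised counts with riluzole and 206 and 205 in control (0.50 ± 0.12). Pml overlaps a microRNA gene on the opposite strand, and Hipk2 has a near-identical stretch elsewhere.

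The kinase gene Hipk2 was higher by 0.34 in edgeR (adjusted p = 0.00228, Benjamini-Hochberg) but not in the authors' deposited table, where the adjusted p was 0.0603. Tab2, the adaptor that Trim30a targets, had 3379 and 3311 normalised counts with riluzole and 3568 and 3792 in control, a log2 fold change of -0.14. Its edgeR call (Benjamini-Hochberg adjusted p = 0.0117) was lost in the authors' deposited table (0.0823), and scaling by DESeq2 size factors turned its sign (log2 fold change 0.027). Atrx, Xiap, Birc2, Birc3, Zmpste24, Tab3 and Skp2 were not listed, so no level of Xiap stands beside that of Xaf1.

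Listed genes of the interferon signal rose as well. Of the 13 reported here, from a list likewise shortened after values were known, 7 were listed and 7 called higher, with a median log2 fold change of 0.75. The same call was made for 41.3% of all listed genes, and here too a call in some direction nearly follows from being listed. Among genes for ISGF3 subunits, Stat2 had 1506 and 1541 normalised counts with riluzole and 549 and 584 in control (log2 fold change 1.42 ± 0.06, SE), and Irf9 had 1728 and 1733 with riluzole and 1055 and 1009 in control (0.75 ± 0.05). Usp18, which feeds back to switch off the receptor, had 1356 and 1680 with riluzole and 429 and 392 in control (1.89 ± 0.08). Irf7, a factor that amplifies interferon production, rose by 1.88 on the log2 scale, the transcription factor gene Irf1 by 0.72 and the receptor kinase gene Tyk2 by 0.47. Of these, Irf9, Irf1, Usp18 and Tyk2 have exons that overlap another gene. Ifnb1, Ifnar1, Ifnar2, Jak1, Irf3 and Socs3 were not listed.

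Set beside other interferon-induced families from the same libraries, the 10 genes had a median log2 fold change of 1.28, against 1.48 for 8 OAS genes and 2.37 for the 7 listed of 8 IFIT, Rsad2 and Cmpk2 genes. The OAS genes ran from 0.98 for Oas1g to 2.05 for Oas3, and the IFIT group from 0.67 for Ifit2 to 3.14 for Ifit3b. The differences between these medians were not tested.

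Many listed genes around the 10 also rose. Within 100 kb of a member the tables list 25 other genes, of which 21 were called higher and 4 lower in edgeR, while the authors' deposited table calls 17 of them higher and 2 lower at the same threshold. Gm45338, Trim30c, Gm7592, Pkp3, Cab39 and Ppp4r4 were called in edgeR only. For all genes listed higher, 53.7% of listed neighbours at that distance were called higher in edgeR and 39.5% by the authors' deposited table. Relatives from the list above made up 7 of the 25, and of the other 18, 14 were higher. Those 14 are not all unrelated to the members. They include Trim34b, a near-identical copy of Trim34a, and Gm7592, Gm20559 and Gm45338, which may share reads with Sp100, Samd9l and Rtp4. This window was chosen after the values were seen.

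The clusters differed in kind. Around Trim30a all 4 listed neighbours were tripartite motif genes, Trim12c, Trim30c, Trim30d and Trim34b, with log2 fold changes of 1.29 to 1.94. Around Ifitm3 the neighbours were Ifitm1 and Ifitm2 and also the unrelated Sigirr (0.42), Pgghg (0.45) and Pkp3 (0.85), all called higher in edgeR. Pkp3 was not called in the authors' deposited table, where its adjusted p was 0.0847. Samd9l had 3 neighbours with no protein product annotated, Gm20559 (log2 fold change 0.80), Gm43197 (1.01) and Gm43196 (1.29), at gaps of 26.1 to 44.4 kb. Gm20559 had 1177 and 1164 normalised counts with riluzole and 687 and 658 in control, and Gm43197 had 683 and 552 with riluzole and 314 and 304 in control. Gm43197 lies wholly inside the span of Gm20559, and whether they are separate transcripts was not tested.

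Other members stood among genes that moved differently. Next to Bst2, Slc27a1 fell by 0.36 on the log2 scale while Abhd8, Ano8, Unc13a and Pgls rose by 0.22 to 0.54, each less than Bst2. Brca1, the one listed neighbour of Ifi35, fell by 0.45. Xaf1 and Ifi44 had no other listed gene within 100 kb.

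**Figure D4:**
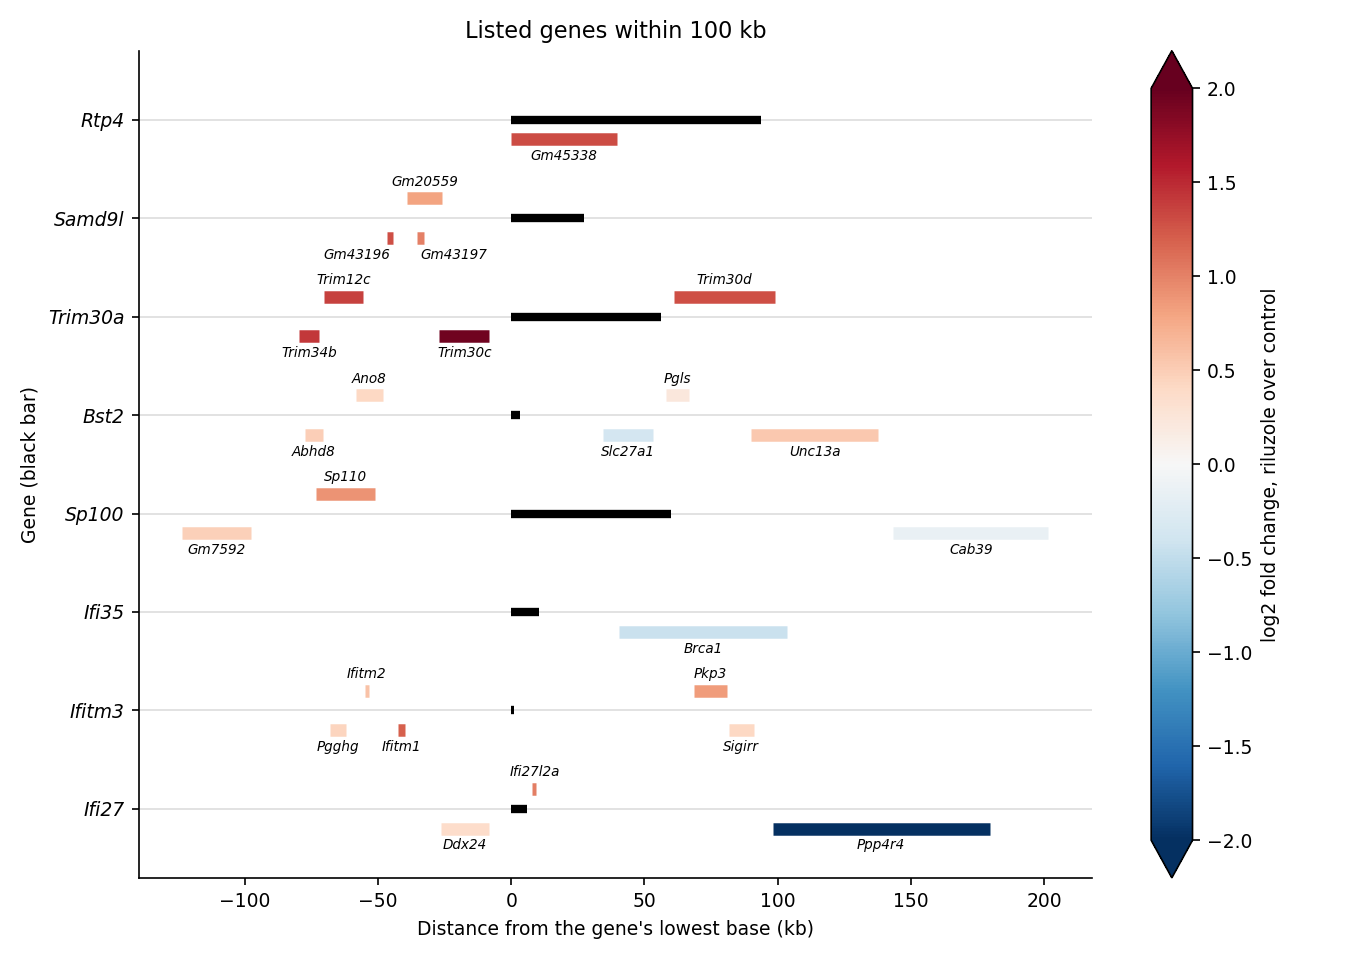
Listed genes within 100 kb of 8 of the 10 genes (black bars), placed by distance in kb from the lowest base of each and coloured by log2 fold change, riluzole over control. Red bars, higher with riluzole, make up 21 of 25; the darkest cluster surrounds Trim30a, and Ppp4r4, the dark blue bar, had no more than 16.8 normalised counts in any library.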

How the data were processed

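The authors deposited 2 tables of genes from 4 polyA RNA libraries of CT26 cells. Raw read counts, normalised counts (a signal, each raw count over a library's size factor), FPKM, log2 fold changes and p-values with their adjusted form are the authors' columns, per the file headers. Tools named in the submitters' processing notes are DESeq2, edgeR, HISAT2 and featureCounts 1.5.0-p3, with build mm39; their settings, the annotation and strandedness: not given in the sources used here. Library totals implied by FPKM were 15803444 to 20562946, and the raw counts of the 10 genes were 203 or more in every library.

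The 4295 genes were joined and their counts tested with edgeR 4.0.16 (R 4.3.3; quasi-likelihood F test, riluzole against control, no covariates, no filter) with the authors' size factors. Benjamini-Hochberg adjustment used 12601 genes. The dispersion was estimated on genes selected for a low p-value, so intervals may be too narrow. A standard error is the log2 fold change divided by the root of F. SDs of 2 libraries cover counting error and library spread together.

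Shared reads were sought by gene identifier in GENCODE M21 (GRCm38): copies of at least 95% identity over 200 bases (BLAST+ 2.17.0), or exon overlaps of at least 50 bases. Gene coordinates are those of the deposited tables (mm39), and promoter coordinates are GRCm38.p6. The members and lists were chosen with earlier results of these data known. Named genes are all members, in each related list the 6 called genes with the smallest adjusted p, unlisted genes by name, and family extremes. Some genes first placed in the lists of partners and of the interferon signal were left out after their values were known, are not reported here and enter none of the lists' counts or medians. Trim34a, Trim30c, Tyk2, the neighbours and the named markers were added after their values were seen. Figures were drawn with matplotlib 3.10.9.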

Additional observations from a re-analysis of the deposited data

How the results depend on the processing

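Across the 13 alternatives, the direction of the 10 genes was unchanged in 125 of 125 comparisons. The call was also unchanged wherever both groups kept 2 libraries. Not all comparisons were refits: 10 are the authors' deposited values. Another 5, for the genes that share no reads, repeat the main fit and could not differ from it. The 10 adjusted over the listed genes alone also keep the main fit's fold changes. Their adjusted p could only fall, so no call could be lost. Ifi27 changed least, with log2 fold changes of 0.21 to 0.41. With size factors that DESeq2 computed over the listed genes, which moved the median of all listed genes up by 0.17, the median log2 fold change of the 10 genes was 1.44. TMM factors over the listed genes moved all genes by 0.10. Leaving out each library in turn gave medians of 1.20 to 1.35 and 10 genes called higher each time, a lone library being assumed to vary like the other group. Leaving out genes that share reads, by construction, left 5 of the 10 genes (Bst2, Ifi27, Ifi44, Ifitm3 and Xaf1), all 5 called higher, 2 of the relatives, 2 higher and 1 lower among the partners, and 3 of the interferon signal genes. The 1 fall among partners, Tab2, depended on these choices: 0 were called lower with TMM factors, with DESeq2 size factors, in the DESeq2 test and in the authors' deposited table, and 0 to 1 when a library was left out, the call being lost without riluzole replicate 2 and without control replicate 2; the authors list Tab2 with an unadjusted p under 0.05. With DESeq2 size factors its sign turned, to 0.027. Trim30c was not called in the DESeq2 test (adjusted p = 0.0585), Nmi was not without riluzole replicate 2 (edgeR, Benjamini-Hochberg adjusted p = 0.0505), and Hipk2 was not without riluzole replicate 1 (0.05002). Replicate numbers shared by the groups are not said to mark a shared batch, and same-numbered libraries deviated together only weakly (correlation 0.078 over 3998 genes). With the replicate number as a block, 10 genes were called higher and the median was 1.28. Groups of 2 libraries limit the precision of every SD.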
